A study of Mus musculus with 26 samples.

Results

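The genes described here are 34 members of the protein folding machinery of the cell, taken from the counts table by symbol with case ignored. Of the 55391 genes in the table they make up 34, all of which were found and all of which passed the filter on low counts. The ER set has 20 members that act in or on the endoplasmic reticulum (ER). The heat shock set has 14 members, of which 11 belong to the cytosol and 3 to mitochondria. RNA was measured in EA1, EA2 and EA3, murine lung cancer cell lines that share an EML4-ALK fusion genotype and were each derived from a mouse tumor. Cultures received 0.1% DMSO as the control or 100 nM alectinib, an inhibitor of the ALK kinase. Each culture was sequenced as 1 library on days 1, 2, 3 and 5, which gives 6 groups of 4 libraries and 24 in all. The 4 days served as replicates. In the alectinib test, each alectinib library was set against the DMSO library of its line and day. Its p-values measure how that difference varies between days, with the spread estimated over the 3 lines together. Nothing in the labels says that the days were independent cultures. Another 2 libraries, labelled EA3 day 7, stayed out of the comparisons.

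Proteins that enter the ER are folded by Hspa5 (BiP), Hsp90b1 and the lectins calnexin and calreticulin, and are joined by disulfide bonds with the help of protein disulfide isomerases. When unfolded protein builds up, the sensors Ire1, Perk and Atf6 start the unfolded protein response, and the factors Xbp1 and Atf6 raise transcription of ER chaperones and of genes for ER-associated degradation. In the cytosol, heat and other stress free the factor Hsf1, which activates genes of the Hsp70, Hsp90, Hsp40 and small heat shock families. Mitochondria fold imported proteins with Hspa9 and with the chaperonin Hspd1 and its cap Hspe1.

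Library totals lay between 5780062 and 11732401 counts (median 9252878). All 4 listed targets of MAPK signaling fell with alectinib in each line. EA1 had a median log2 fold change of -3.87 over them, EA2 of -6.62 and EA3 of -4.26. Some libraries stood apart. Long genes were low against short genes in the EA3 DMSO library of day 2 (by -0.86 on the log2 scale, from the other libraries) and high in that of day 3 (0.79), and results that rest on these pairs are given without them. The summed level of 9 fibroblast markers lay between 9.09 and 44.1 CPM in EA1 DMSO libraries and between 125.8 and 478.9 CPM with alectinib. In EA2 it went from 58.5 to 71.5 CPM in DMSO and from 121.6 to 239.8 CPM with alectinib, and in EA3 from 10.2 to 20.2 and from 84.9 to 286.3 CPM. Of the 9, Lum and Postn were at 0 in both EA2 groups, Col1a2, Lum and Postn in EA1 DMSO libraries and Pdgfrb, Lum and Thy1 in EA3 DMSO libraries. The summed level of 5 epithelial markers lay between 566.6 and 1169 CPM in EA2 with alectinib, against 1811 to 2695 CPM in EA2 DMSO libraries. In EA1 it went from 4633 to 9252 CPM in DMSO and from 3245 to 5367 CPM with alectinib, and the EA3 ranges were 4633 to 6680 and 2950 to 6655 CPM. Within the list, Epcam was at 0 in EA2 with alectinib and at most at 0.627 CPM in EA2 DMSO libraries, and Cdh1 was higher with alectinib on each day in EA2. Epcam was higher with alectinib on each day in EA1 and on all days but day 5 in EA3. Cdh1 was higher on all days but day 2 in EA1 and day 3 in EA3. Krt18 was lower with alectinib on each day in all lines. The lung markers Nkx2-1 and Sftpc were at most at 0.757 and 0.129 CPM in any library, while Foxa2, the other gene of that list, lay between 2.88 and 50.7 CPM. Genes of the mitochondrial genome took 1.19% to 1.97% of counts in EA1 DMSO libraries and 2.35% to 2.77% with alectinib, with no overlap. In EA3 their share was higher with alectinib on each day, and in EA2 the ranges overlapped. The part of these markers and shares in the results was not tested. In bulk RNA, fewer cells of a kind and less RNA per cell cannot be told apart.

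Some ER members have a stress response element in their promoters. Promoters were taken from RefSeq (GRCm38.p6) as 250 bases before to 50 after a gene's start, and 26 of the 34 members had one. Hyou1, Manf, Atf6, Hspa8, Hsp90aa1, Hsp90ab1, Hspa9 and Hsf1 had none in that source and were not searched. Where a gene had several starts, the first listed was counted. The ER stress response element (ERSE), the site bound by Atf6 together with NF-Y, was searched on both strands as CCAAT and CCACG with 9 bases between them and found in 7 of 17 ER members with a promoter and in 0 of 9 heat shock members. Among all 27025 promoters, 35 (0.13%) held it. The shorter ERSE-II, ATTGG and CCACG with 1 base between them, was in 2 of 17 ER members, 0 of 9 heat shock members and 10 (0.037%) of all promoters. The heat shock element, to which Hsf1 binds, was searched as GAA, TTC and GAA with 2 bases between each and found in 2 of 9 heat shock members, 0 of 17 ER members and 143 (0.529%) of all promoters. Only exact matches were counted, and variants of the element were not searched. The window of another listed start of Hspd1, which was not counted, also holds the Hspe1 sites. ERSE or ERSE-II was in 9 of the 17 ER members, and Sdf2l1, Dnajb9, Pdia3, Pdia4, P4hb, Edem1, Sel1l and Xbp1 held neither. The sites are shown so that the matches can be read in the members that have one. They are read 5′ to 3′ along the motif, on either strand of the gene, and capitals mark the fixed letters.
Hspa5 ERSE, chr2:34772025-34772043 (+): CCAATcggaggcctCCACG
Hsp90b1 ERSE, chr10:86705638-86705656 (-): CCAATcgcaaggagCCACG
Hsp90b1 second ERSE, chr10:86705533-86705551 (+): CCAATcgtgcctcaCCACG
Pdia6 ERSE, chr12:17266491-17266509 (+): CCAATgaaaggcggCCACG
Creld2 ERSE, chr15:88819520-88819538 (-): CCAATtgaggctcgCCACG
Calr ERSE, chr8:84847075-84847093 (+): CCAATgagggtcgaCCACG
Canx ERSE, chr11:50325800-50325818 (-): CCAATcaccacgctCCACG
Dnajc3 ERSE, chr14:118937827-118937845 (+): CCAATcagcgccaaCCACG
Herpud1 ERSE-II, chr8:94386377-94386387 (+): ATTGGgCCACG
Dnajb11 ERSE-II, chr16:22857852-22857862 (+): ATTGGcCCACG
Hsph1 heat shock element, chr5:149636288-149636300 (+): GAActTTCcaGAA
Hspe1 heat shock element, chr1:55088059-55088071 (-): GAAggTTCtaGAA
Hspe1 second heat shock element, chr1:55088064-55088076 (+): GAAccTTCcgGAA

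Coordinates are those of GRCm38.p6. The Hsph1 and Dnajb11 sites lie just after the start of their genes and the others before it. The Hspe1 sites overlap each other and lie within the annotated span of Hspd1 (chr1:55077835-55088243), which is read from the opposite strand. The 250 bases before the start of Hspa5 (chr2:34771840-34772089, + strand) are shown in full, with the fixed letters of its ERSE in capitals, because Hspa5 is the central HSP70 of the ER.
Hspa5 upstream region: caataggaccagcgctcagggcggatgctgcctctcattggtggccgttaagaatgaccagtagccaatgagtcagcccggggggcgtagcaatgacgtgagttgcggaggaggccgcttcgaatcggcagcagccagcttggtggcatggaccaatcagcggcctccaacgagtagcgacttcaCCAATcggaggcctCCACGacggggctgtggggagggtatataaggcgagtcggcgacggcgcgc

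A match is a description of these letters and not of binding.

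Alectinib lowered part of both sets. The test was edgeR's quasi-likelihood test over 14264 genes with Benjamini-Hochberg adjustment and a threshold of 0.05, and every adjusted p below is from it unless another tool is named. In EA1, 11 of 34 members were lower and 0 higher, where 14.6% of all genes tested were lower and 19% higher. EA2 had 8 members lower and 2 higher (11.3% and 13% of all genes), and EA3 had 14 lower and 0 higher (15.1% and 17.5%). At an unadjusted p below 0.05, 0 members were higher in EA1 and 1 in EA3 (Dnajb11), and DESeq2 called 1 higher in EA1 (Hspb8) and 0 in EA3. The EA2 count of 10 fell to 6 without the block of days and to 6 or 7 with a day left out, and the EA3 count of 14 fell to 6 without the day 2 and day 3 pairs. Of the 20 ER members, 5 were lower in EA1, 5 in EA2 and 8 in EA3. Of the 14 heat shock members, 6 were lower in EA1, 3 in EA2 and 6 in EA3. The median log2 fold change of the ER set and of the heat shock set was -0.18 against -0.69 for EA1. For EA2 these medians were -0.04 and -0.03, and for EA3 -0.48 and -0.59. Over all genes tested, EA1 had a median of 0.06, EA2 of 0.00 and EA3 of 0.07. No test compared the sets with each other. The medians of the cytosolic and the mitochondrial genes were -0.57 and -0.99 for EA1. The corresponding EA2 medians were 0.26 and -0.63, and the EA3 medians -0.48 and -0.97. The cytosolic medians of EA2 and EA3 include Hspb8, which had 2 counts or fewer in each library there. Manf, Hspd1, Hspe1 and Hsf1, 4 of 34 members, fell in all 3 lines, where 10.2% of all genes were called in all 3 in either direction. The EA2 calls of Hspd1 and Hspe1 were lost under 6 and 5 of 15 alternatives, and that of Hsf1 under 1. A further 10 members were called in 2 lines (16.9% of all genes), 3 in 1 line (26.1%) and 17 in none.

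**Figure D1:**
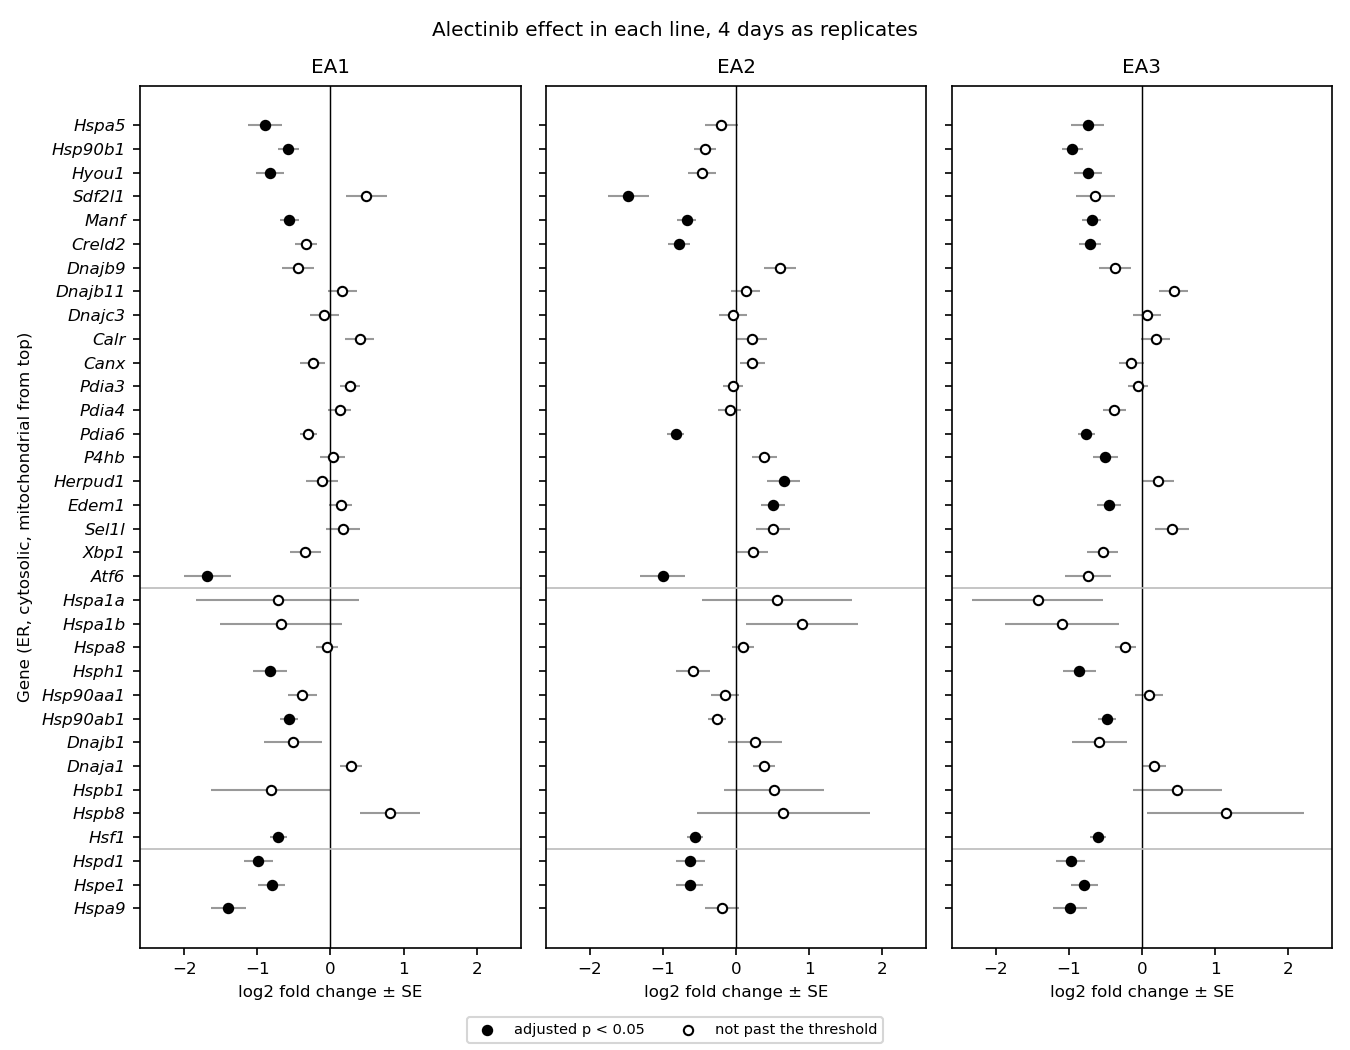
Log2 fold change of each member with alectinib (x axis, with SE) in EA1, EA2 and EA3, with filled points for an adjusted p below 0.05 and open points for the rest. Horizontal lines part the 20 ER, 11 cytosolic and 3 mitochondrial genes, and Manf, Hsf1, Hspd1 and Hspe1 are filled and below 0 in all 3 panels.

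Overlap of the libraries was counted as well. In EA1, all 4 alectinib libraries lay below all 4 DMSO libraries for 9 of 34 members, and 13% of all genes did so. In EA2 this was so for 7 members (12.5% of all genes) and in EA3 for 10 (10.7%). The other way round, all alectinib libraries lay above all DMSO libraries for 3 members in EA2 and for 0 in EA1 and EA3. The 3 were Dnajb9, Edem1 and Hspa1b, and the share of all genes in this direction was not counted. Values are CPM, counts relative to the library total, scaled with TMM factors, edgeR's correction for differences in library composition, and are given per library for days 1, 2, 3 and 5 in that order.

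Among the chaperones of the ER lumen, Hspa5, the HSP70 of the ER, fell in EA1 and EA3. In EA1, Hspa5 was at 926.0, 900.3, 2302 and 1296 CPM in DMSO and at 637.3, 718.2, 648.5 and 696.2 CPM with alectinib. The DMSO library of day 3 was far above the rest, and the groups did not overlap. The fold change for Hspa5 in EA1 was -0.89 ± 0.23 (log2, SE, adjusted p = 0.0101). Without day 3 the value was -0.62 with an adjusted p of 0.0771, past the threshold no longer. In EA3, Hspa5 was at 1045, 1049, 1107 and 2160 CPM in DMSO and at 736.2, 781.0, 623.8 and 932.1 CPM with alectinib. Hspa5 differed by -0.74 ± 0.23 on the log2 scale in EA3 (SE, adjusted p = 0.0245). The DMSO library of day 5 was highest here, and without day 5 the value was -0.59 (adjusted p = 0.142). In EA2, Hspa5 was at 709.5, 736.5, 638.3 and 550.2 CPM in DMSO and at 414.8, 624.8, 618.2 and 653.6 CPM with alectinib. These values overlapped, and the log2 fold change was -0.20 ± 0.23 (SE, adjusted p = 0.562).

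Hsp90b1 (GRP94), the HSP90 of the ER, fell in EA3 and EA1. In EA3, Hsp90b1 was at 535.2, 550.0, 430.0 and 980.5 CPM in DMSO and at 313.4, 309.4, 234.4 and 392.8 CPM with alectinib. Every alectinib library was below every DMSO library, and the log2 fold change was -0.95 ± 0.15 (SE, adjusted p = 0.000422). In EA1, Hsp90b1 was at 657.3, 552.6, 737.5 and 830.4 CPM in DMSO and at 409.0, 464.9, 472.3 and 504.7 CPM with alectinib. For Hsp90b1 in EA1, the log2 fold change was -0.57 ± 0.15 (SE, adjusted p = 0.0092). In EA2, Hsp90b1 was at 558.7, 557.4, 472.6 and 491.2 CPM in DMSO and at 299.2, 440.5, 392.1 and 429.9 CPM with alectinib. In EA2 the alectinib libraries were also the lower ones, but the test missed the threshold narrowly: the log2 fold change was -0.42 ± 0.15 (SE, adjusted p = 0.0507). It was called there under 5 of 15 alternatives, DESeq2 among them (-0.44, adjusted p = 0.0157). Hyou1, the large HSP70-like exchange factor of Hspa5, fell in the same lines. In EA1, Hyou1 was at 326.9, 223.7, 385.0 and 250.1 CPM in DMSO and at 163.0, 181.6, 163.5 and 148.8 CPM with alectinib. Hyou1 thus had a log2 fold change of -0.82 ± 0.19 in EA1 (SE, adjusted p = 0.00508). In EA3, Hyou1 was at 256.8, 159.0, 286.8 and 260.5 CPM in DMSO and at 135.5, 144.2, 132.4 and 154.9 CPM with alectinib. On the log2 scale, Hyou1 in EA3 changed by -0.73 ± 0.19 (SE, adjusted p = 0.00992). The libraries of both treatments were apart in each of these lines, and without day 3 the EA3 call was lost (adjusted p = 0.0552). In EA2, Hyou1 was at 308.7, 274.7, 272.7 and 254.9 CPM in DMSO and at 157.2, 198.0, 217.1 and 238.9 CPM with alectinib. The EA2 value for Hyou1 was -0.47 ± 0.19 (log2 fold change, SE, adjusted p = 0.0903), and it was called with each line fitted alone (-0.48, 0.0411) and with library size alone (-0.52, 0.0488).

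Sdf2l1, a stromal-cell-derived-factor-like protein that works with ER J proteins, behaved differently between lines. In EA2, Sdf2l1 was at 28.8, 37.8, 28.1 and 24.5 CPM in DMSO and at 9.09, 12.4, 9.81 and 11.2 CPM with alectinib. All alectinib libraries were below all DMSO libraries, and the log2 fold change was -1.48 ± 0.28 (SE, adjusted p = 0.00176). In EA1, Sdf2l1 was at 23.7, 15.04, 4.49 and 17.8 CPM in DMSO and at 19.6, 19.4, 18.02 and 18.9 CPM with alectinib. The EA1 libraries overlapped, with the lowest DMSO value on day 3, and the log2 fold change was 0.49 ± 0.28 (SE, adjusted p = 0.192). In EA3, Sdf2l1 was at 27.9, 37.1, 22.3 and 39.5 CPM in DMSO and at 16.7, 22.2, 19.3 and 21.97 CPM with alectinib. Sdf2l1 in EA3 had a log2 fold change of -0.64 ± 0.27 (SE, adjusted p = 0.0874), and was called lower under 3 of 15 alternatives. The test of equal effects in the 3 lines gave an adjusted p of 0.0234. Sdf2l1 and Edem1 were the 2 of 34 members past the threshold in that test, against 6.84% of all genes. The Sdf2l1 call in that test was lost without day 2, 3 or 5 (adjusted p = 0.111, 0.0501 and 0.0795), and the Edem1 call without day 1, 3 or 5 (0.0701, 0.266 and 0.268).

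Manf and Creld2 complete the lumenal group. Manf, a secreted ER stress factor, had -0.56 ± 0.13 (log2, SE, adjusted p = 0.00601) in EA1, -0.68 ± 0.13 (log2, SE, adjusted p = 0.0025) in EA2 and -0.69 ± 0.13 (log2, SE, adjusted p = 0.00192) in EA3. In DMSO it ranged from 60.7 to 135.9 CPM over the 3 lines and with alectinib from 37.3 to 93.1 CPM. Without day 1 the EA1 value was -0.50 (adjusted p = 0.0522). Creld2, a cysteine-rich ER protein, had -0.78 ± 0.15 (log2, SE, adjusted p = 0.00204) in EA2 and -0.71 ± 0.15 (log2, SE, adjusted p = 0.00309) in EA3, and -0.33 ± 0.15 (log2, SE, adjusted p = 0.106) in EA1, where it passed under 2 of 15 alternatives, without day 5 (-0.51, 0.0434) and with gene length offsets (-0.50, 0.0478). It ran from 34.2 to 88.02 CPM in DMSO and from 28.9 to 55.1 CPM with alectinib.

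**Figure D2:**
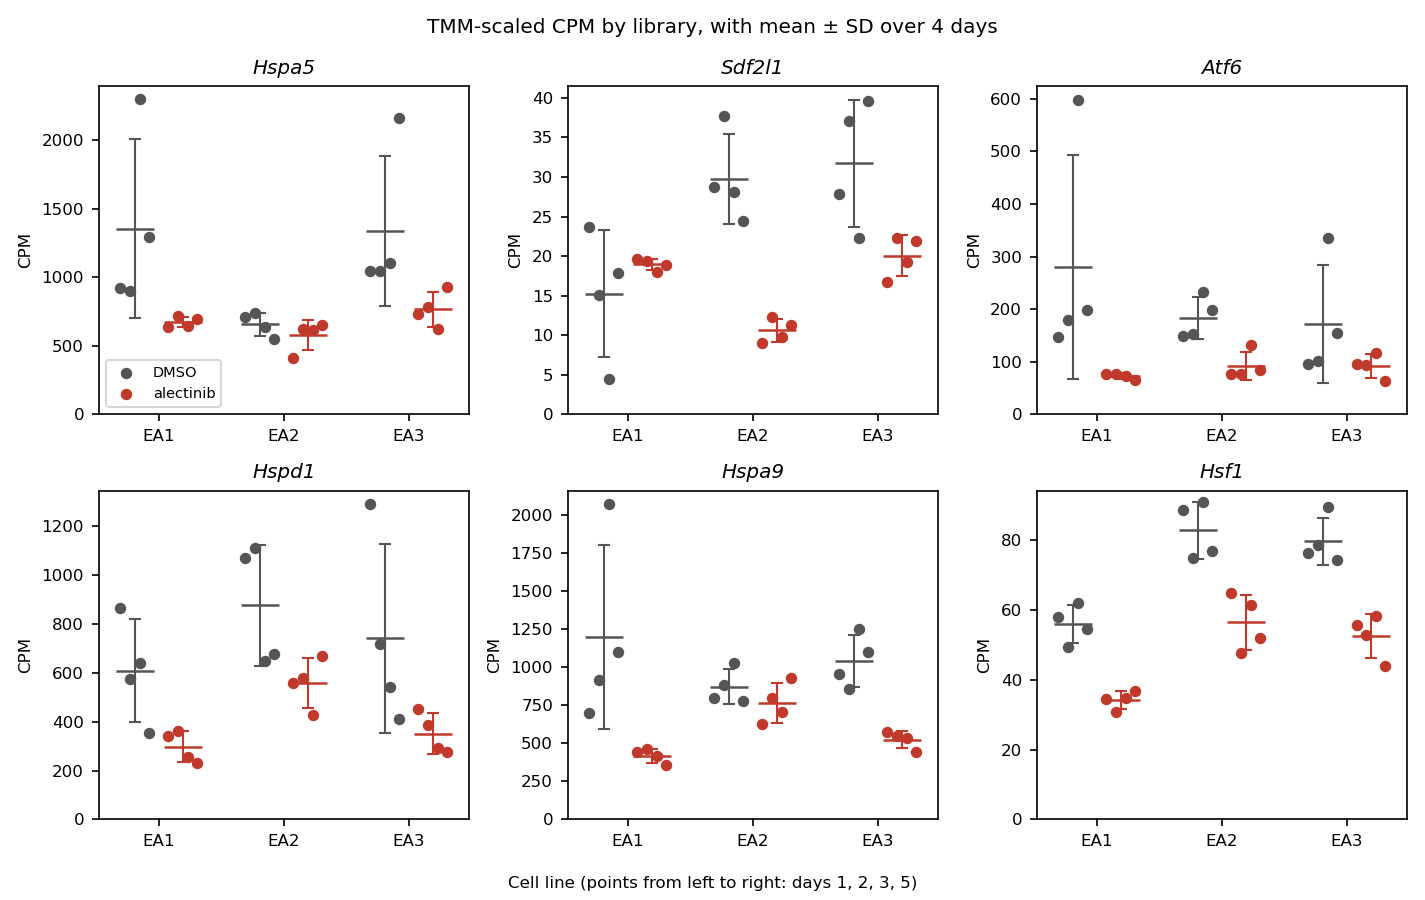
TMM-scaled CPM (y axis) of Hspa5, Sdf2l1, Atf6, Hspd1, Hspa9 and Hsf1 in each library, by line (x axis), with points for days 1, 2, 3 and 5 from left to right and a mean with SD. Hsf1 libraries with alectinib sit below all DMSO libraries in every line, while Hspa5 in EA2 and Sdf2l1 in EA1 overlap.

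J proteins and lectins of the ER did not pass the threshold in any line by edgeR as designed. Dnajb9, Dnajb11 and Dnajc3, the J protein partners of Hspa5, had log2 fold changes between -0.44 and 0.60. Dnajb9 in EA2 had 0.60 ± 0.22 (log2, SE, adjusted p = 0.0604), with all alectinib libraries above all DMSO libraries. It was called higher in EA2 with each line fitted alone (0.59, adjusted p = 0.0119) and without the 2 library pairs of EA3 named above (0.60, 0.04999). Without day 1, Dnajb11 was called higher in EA3 (0.58, adjusted p = 0.0486) and Calr in EA1 (0.58, 0.0318). The lectin chaperones calreticulin (Calr) and calnexin (Canx) lay between -0.24 and 0.40. In DMSO, Calr ran from 532.1 to 1079 CPM and Canx from 480.0 to 827.9 CPM.

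Of the protein disulfide isomerases, Pdia6 fell in EA2 and EA3. In EA2, Pdia6 was at 346.0, 380.6, 315.5 and 334.2 CPM in DMSO and at 175.0, 221.8, 192.1 and 188.1 CPM with alectinib. The fold change for Pdia6 in EA2 was -0.83 ± 0.11 (log2, SE, adjusted p = 0.000189). In EA3, Pdia6 was at 305.8, 396.2, 332.2 and 434.0 CPM in DMSO and at 210.1, 210.7, 196.6 and 245.8 CPM with alectinib. Pdia6 differed by -0.76 ± 0.11 on the log2 scale in EA3 (SE, adjusted p = 0.000345). In both lines every alectinib library was below every DMSO library. In EA1, Pdia6 was at 444.0, 364.7, 318.1 and 358.9 CPM in DMSO and at 303.9, 306.2, 291.3 and 295.0 CPM with alectinib. The libraries of EA1 were apart too, and the log2 fold change was -0.30 ± 0.11 (SE, adjusted p = 0.0559). Pdia6 was called lower in EA1 under 5 of 15 alternatives, with DESeq2 at -0.32 (adjusted p = 0.00713). P4hb, the founding member of this enzyme family, fell in EA3. In EA3, P4hb was at 1047, 1218, 1273 and 2002 CPM in DMSO and at 939.1, 945.7, 711.1 and 1283 CPM with alectinib. For P4hb in EA3, the log2 fold change was -0.50 ± 0.17 (SE, adjusted p = 0.0392). Its DMSO and alectinib libraries overlapped, and the call was lost under 10 of 15 alternatives. Pdia3 and Pdia4 passed in no line by edgeR as designed, with log2 fold changes between -0.38 and 0.27. DESeq2 called Pdia4 lower in EA3 (-0.38, adjusted p = 0.0465), as did edgeR with all 26 libraries (-0.42, 0.0306).

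Herpud1, an ER membrane protein that organizes ER-associated degradation, and Edem1, a mannosidase-like lectin of the same pathway, were the members called higher by edgeR as designed, both in EA2. In EA2, Herpud1 was at 20.6, 22.9, 68.97 and 32.05 CPM in DMSO and at 24.99, 41.9, 100.5 and 59.8 CPM with alectinib. Each day was higher with alectinib, and the log2 fold change was 0.65 ± 0.22 (SE, adjusted p = 0.049). In EA2, Edem1 was at 49.8, 52.5, 44.7 and 54.7 CPM in DMSO and at 59.6, 60.3, 79.9 and 90.6 CPM with alectinib. These libraries did not overlap, and the log2 fold change was 0.51 ± 0.16 (SE, adjusted p = 0.0349). In EA3, Edem1 was at 88.3, 68.5, 104.1 and 114.0 CPM in DMSO and at 61.4, 64.1, 69.6 and 74.98 CPM with alectinib. In EA3, Edem1 fell, with -0.45 ± 0.16 (log2, SE, adjusted p = 0.0449), and the groups overlapped. The test of equal Edem1 effects in the 3 lines gave an adjusted p of 0.0481. Its calls were lost under 5 of 15 alternatives in EA2 and 8 of 15 in EA3, and the Herpud1 call under 8 of 15. In the other lines, Herpud1 had -0.12 ± 0.22 (log2, SE, adjusted p = 0.694) in EA1 and 0.23 ± 0.22 (log2, SE, adjusted p = 0.457) in EA3. Sel1l, the scaffold of the degradation ligase Hrd1, was not called as designed, with values between 0.17 and 0.51. It was called higher in EA2 with each line fitted alone (0.49, adjusted p = 0.0156) and in EA3 without day 3 (0.69, 0.0289).

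Of the transcription factors of the response, Atf6 had the largest fall of any called member. In EA1, Atf6 was at 146.4, 178.7, 597.5 and 198.1 CPM in DMSO and at 76.7, 76.1, 73.1 and 65.3 CPM with alectinib. Atf6 thus had a log2 fold change of -1.68 ± 0.32 in EA1 (SE, adjusted p = 0.0015). The DMSO library of day 3 was the highest, and the value without day 3 was -1.29, still past the threshold. In EA2, Atf6 was at 149.9, 153.7, 232.9 and 197.8 CPM in DMSO and at 76.3, 77.8, 131.4 and 84.3 CPM with alectinib. On the log2 scale, Atf6 in EA2 changed by -1.003 ± 0.30 (SE, adjusted p = 0.028). The groups did not overlap, and the call was lost without day 1, 2 or 5 (-1.01, -1.02 and -0.93, adjusted p = 0.0574, 0.0812 and 0.118) and without the block of days (-0.99, 0.0781), with folds of about the same size. In EA3, Atf6 was at 96.4, 102.4, 335.1 and 154.7 CPM in DMSO and at 96.1, 94.00, 116.9 and 62.6 CPM with alectinib. In EA3 the libraries overlapped, and the log2 fold change was -0.74 ± 0.31 (SE, adjusted p = 0.0852). It was called lower in EA3 under 3 of 15 alternatives. These were no filter on low counts (-0.77, adjusted p = 0.00131), all 26 libraries (-1.06, 0.0174) and offsets for gene length (-0.99, 0.0250). Atf6 has 9231 exon bases, and the part of gene length in these calls was not tested. Xbp1 had no call as designed, with -0.35 ± 0.21 (log2, SE, adjusted p = 0.221) in EA1, 0.23 ± 0.21 (log2, SE, adjusted p = 0.477) in EA2 and -0.54 ± 0.22 (log2, SE, adjusted p = 0.0738) in EA3. In EA3, Xbp1 was called lower with no filter on low counts (-0.57, adjusted p = 0.0348), without day 1 (-0.83, 0.0101) and with all 26 libraries (-0.65, 0.0161).

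Of the mitochondrial chaperones, Hspd1, the HSP60 chaperonin, fell in all 3 lines. In EA1, Hspd1 was at 865.6, 573.6, 640.3 and 355.7 CPM in DMSO and at 343.1, 363.1, 253.8 and 232.7 CPM with alectinib. The EA1 value for Hspd1 was -0.99 ± 0.20 (log2 fold change, SE, adjusted p = 0.0022). Each alectinib library was below the DMSO library of its day, while the groups overlapped. In EA3, Hspd1 was at 1292, 717.6, 542.4 and 412.1 CPM in DMSO and at 452.5, 385.2, 292.8 and 276.0 CPM with alectinib. Hspd1 in EA3 had a log2 fold change of -0.97 ± 0.20 (SE, adjusted p = 0.00248). The order within days was the same in EA3, again with overlap between groups. In EA2, Hspd1 was at 1071, 1111, 647.9 and 675.5 CPM in DMSO and at 556.9, 579.8, 425.6 and 671.1 CPM with alectinib. The fold change for Hspd1 in EA2 was -0.63 ± 0.20 (log2, SE, adjusted p = 0.033). The EA2 call was lost without day 1, 2 or 3 (adjusted p from 0.116 to 0.174), without the block of days (0.144), with gene length offsets (0.0754) and without the pairs of EA3 that had a length trend (0.0586). Hspe1, its co-chaperonin, fell in all 3 lines too. In EA1, Hspe1 was at 147.4, 107.2, 120.6 and 122.9 CPM in DMSO and at 68.5, 85.5, 65.8 and 66.2 CPM with alectinib. Hspe1 differed by -0.80 ± 0.18 on the log2 scale in EA1 (SE, adjusted p = 0.00504). In EA2 it had -0.63 ± 0.18 (log2, SE, adjusted p = 0.022), and in EA3 -0.79 ± 0.18 (log2, SE, adjusted p = 0.0057). In EA2, Hspe1 was at 226.8, 283.9, 160.3 and 137.5 CPM in DMSO and at 141.5, 159.3, 82.7 and 131.3 CPM with alectinib. In EA3, Hspe1 was at 236.5, 200.2, 101.9 and 126.4 CPM in DMSO and at 101.9, 98.2, 83.8 and 82.6 CPM with alectinib. In these lines some libraries overlapped, and the EA2 call was lost without day 1, 2 or 3 (adjusted p from 0.0698 to 0.117), without the block of days (0.0657) and with gene length offsets (0.105). The exons of Hspd1 and Hspe1 overlap on opposite strands by 4.2% and 7.6% of their bases, and without the strand setting of the counter their reads there cannot be told apart.

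Hspa9 (mortalin), the mitochondrial HSP70, had the largest log2 fold change among the called heat shock members in EA1. In EA1, Hspa9 was at 697.6, 918.3, 2070 and 1097 CPM in DMSO and at 439.9, 461.7, 415.9 and 355.0 CPM with alectinib. For Hspa9 in EA1, the log2 fold change was -1.40 ± 0.24 (SE, adjusted p = 0.000748). Every alectinib library was below every DMSO library, with DMSO highest on day 3. In EA3, Hspa9 was at 956.6, 856.6, 1247 and 1097 CPM in DMSO and at 573.2, 547.7, 531.3 and 444.2 CPM with alectinib. Hspa9 thus had a log2 fold change of -0.98 ± 0.23 in EA3 (SE, adjusted p = 0.00593). In EA2, Hspa9 was at 799.9, 883.0, 1026 and 774.4 CPM in DMSO and at 628.3, 794.2, 704.5 and 930.7 CPM with alectinib. In EA2 the libraries overlapped, and the log2 fold change was -0.20 ± 0.23 (SE, adjusted p = 0.574).

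In the cytosol, Hsf1, the factor that drives heat shock transcription, fell in all lines. In EA1, Hsf1 was at 58.1, 49.4, 62.2 and 54.7 CPM in DMSO and at 34.5, 30.7, 34.7 and 36.9 CPM with alectinib. On the log2 scale, Hsf1 in EA1 changed by -0.71 ± 0.11 (SE, adjusted p = 0.000396). These groups were apart. In EA2, Hsf1 was at 88.8, 74.9, 91.1 and 77.1 CPM in DMSO and at 64.8, 47.7, 61.5 and 52.1 CPM with alectinib. The EA2 value for Hsf1 was -0.56 ± 0.11 (log2 fold change, SE, adjusted p = 0.00229). The same held here, though with no filter on low counts the EA2 call was lost (-0.56, adjusted p = 0.0600). In EA3, Hsf1 was at 76.5, 78.6, 89.5 and 74.3 CPM in DMSO and at 55.7, 52.8, 58.2 and 43.9 CPM with alectinib. Hsf1 in EA3 had a log2 fold change of -0.60 ± 0.11 (SE, adjusted p = 0.00118). All alectinib libraries were below all DMSO libraries in each line. Hsph1 (HSP110), an exchange factor for HSP70, fell in EA1 and EA3. In EA1, Hsph1 was at 196.4, 105.8, 169.0 and 127.4 CPM in DMSO and at 126.5, 96.9, 59.5 and 61.8 CPM with alectinib. The fold change for Hsph1 in EA1 was -0.83 ± 0.23 (log2, SE, adjusted p = 0.0136). In EA3, Hsph1 was at 345.2, 231.6, 346.3 and 241.4 CPM in DMSO and at 198.8, 165.2, 170.4 and 110.7 CPM with alectinib. Hsph1 differed by -0.86 ± 0.22 on the log2 scale in EA3 (SE, adjusted p = 0.0105). The EA1 groups overlapped and the EA3 groups did not. Without day 3 or day 5 the EA1 call was lost (adjusted p = 0.0884 and 0.0516), and without day 5 the EA3 call (0.0596). In EA2, Hsph1 was at 278.0, 264.9, 116.8 and 149.1 CPM in DMSO and at 126.6, 130.6, 104.6 and 144.2 CPM with alectinib. Each day was lower, the groups overlapped, and the value missed the threshold at -0.59 ± 0.23 (log2, SE, adjusted p = 0.0747). It was called lower in EA2 under 4 of 15 alternatives, with DESeq2 at -0.61 (adjusted p = 0.0434).

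Hsp90ab1, the constitutive HSP90 and the most abundant member per exon length in DMSO cultures of each line, had -0.57 ± 0.12 (log2, SE, adjusted p = 0.00378) in EA1, -0.26 ± 0.12 (log2, SE, adjusted p = 0.155) in EA2 and -0.48 ± 0.12 (log2, SE, adjusted p = 0.00977) in EA3, and passed in EA1 and EA3 by edgeR. DESeq2 also called Hsp90ab1 lower in EA2 (-0.28, adjusted p = 0.0119). In EA1, Hsp90ab1 was at 4553, 4235, 3040 and 4029 CPM in DMSO and at 3094, 2781, 2442 and 2341 CPM with alectinib. In EA3, Hsp90ab1 was at 6289, 4753, 4069 and 4285 CPM in DMSO and at 4127, 3542, 3022 and 3126 CPM with alectinib. On each of the 4 days the alectinib library was the lower one in all 3 lines, and the EA3 call was lost without day 1 or 2 (adjusted p = 0.068 and 0.0504) and with each line fitted alone (0.0637). Hspa8, the constitutive HSP70, passed in no line. In EA1, Hspa8 was at 2789, 1992, 1138 and 2027 CPM in DMSO and at 2306, 2021, 1514 and 1582 CPM with alectinib. In EA2, Hspa8 was at 1793, 2333, 1669 and 1599 CPM in DMSO and at 2106, 1921, 1884 and 1870 CPM with alectinib. In EA3, Hspa8 was at 3000, 2793, 2101 and 2292 CPM in DMSO and at 2365, 2274, 1941 and 2081 CPM with alectinib. The libraries of Hspa8 overlapped in each line, with -0.05 ± 0.15 (log2, SE, adjusted p = 0.82), 0.09 ± 0.15 (log2, SE, adjusted p = 0.708) and -0.22 ± 0.15 (log2, SE, adjusted p = 0.271) in EA1, EA2 and EA3. Hsp90aa1, the inducible HSP90, ran from -0.38 to 0.10, and Dnaja1, an HSP40, from 0.17 to 0.38, with no call by edgeR as designed. Without day 2, Hsp90aa1 was called lower in EA1 (-0.66, adjusted p = 0.0423).

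Hspb8, a small heat shock protein, was at 7.22, 10.03, 18.6 and 14.73 CPM in the DMSO cultures of EA1 and at 14.86, 22.05, 22.16 and 26.48 CPM with alectinib. Each day was higher with alectinib, though the groups overlapped, and edgeR put the log2 fold change at 0.82 ± 0.41 (SE, adjusted p = 0.137). DESeq2 called Hspb8 higher in EA1 (0.80, adjusted p = 0.0453), as did edgeR with each line fitted alone (0.77, 0.0330).

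The inducible HSP70 genes Hspa1a and Hspa1b, their partner Dnajb1 and the small heat shock protein Hspb1 passed in no line in the alectinib test as designed, and their DMSO libraries varied by day. In EA1, Hspa1b was at 30.1, 18.4, 9.30 and 435.7 CPM in DMSO and at 22.00, 26.1, 17.6 and 17.1 CPM with alectinib. In EA3, Hspa1b was at 44.1, 33.4, 65.97 and 487.0 CPM in DMSO and at 36.4, 42.4, 30.1 and 39.8 CPM with alectinib. In EA1 and EA3 the DMSO culture of day 5 was 14.5 and 7.38 times the highest of the earlier days, and the alectinib culture of day 5 was not raised. In EA2, Hspa1b was at 11.5, 8.47, 5.61 and 7.13 CPM in DMSO and at 15.9, 12.2, 13.5 and 17.98 CPM with alectinib. In EA2 the DMSO library of day 5 was not above the earlier days, and all alectinib libraries were above all DMSO libraries. Hspa1a had its highest DMSO library on day 5 too. In EA1, Hspa1a was at 1.05, 1.34, 0.53 and 65.9 CPM in DMSO and at 1.35, 2.21, 1.66 and 2.01 CPM with alectinib. In EA3, Hspa1a was at 3.95, 8.40, 10.4 and 128.0 CPM in DMSO and at 4.43, 5.89, 4.24 and 6.49 CPM with alectinib. In EA2, Hspa1a was at 0.99, 0.89, 0.90 and 1.38 CPM in DMSO and at 1.68, 1.06, 2.37 and 1.12 CPM with alectinib. Its DMSO library of day 5 was 49.3 times the highest earlier day in EA1, and 12.3 times in EA3. For Dnajb1 the ratio was 5.29 in EA1 and 2.25 in EA3, and for Hspb1 it was 4.64 and 4.99. Hspa1a and Hspa1b are near-identical, so the split of reads between them is uncertain, and 19.0% of the exon bases of Hspa1a overlap an antisense gene. Each of these rises rests on 1 library. The calls of these genes depended on the fit. Without the block of days, Hspa1a (-3.24, adjusted p = 0.0378) and Hspa1b (-2.57, 0.0330) were called lower in EA1. With no filter on low counts, Hspa1b was called lower in EA1 and EA3 and higher in EA2, Dnajb1 lower in EA1 and EA3, and Hspa1a lower in EA3. With each line fitted alone, Hspa1b was called higher in EA2 (0.89, adjusted p = 0.0176), and without day 5 Hspb1 was called higher in EA3 (1.19, 0.0247).

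**Figure D3:**
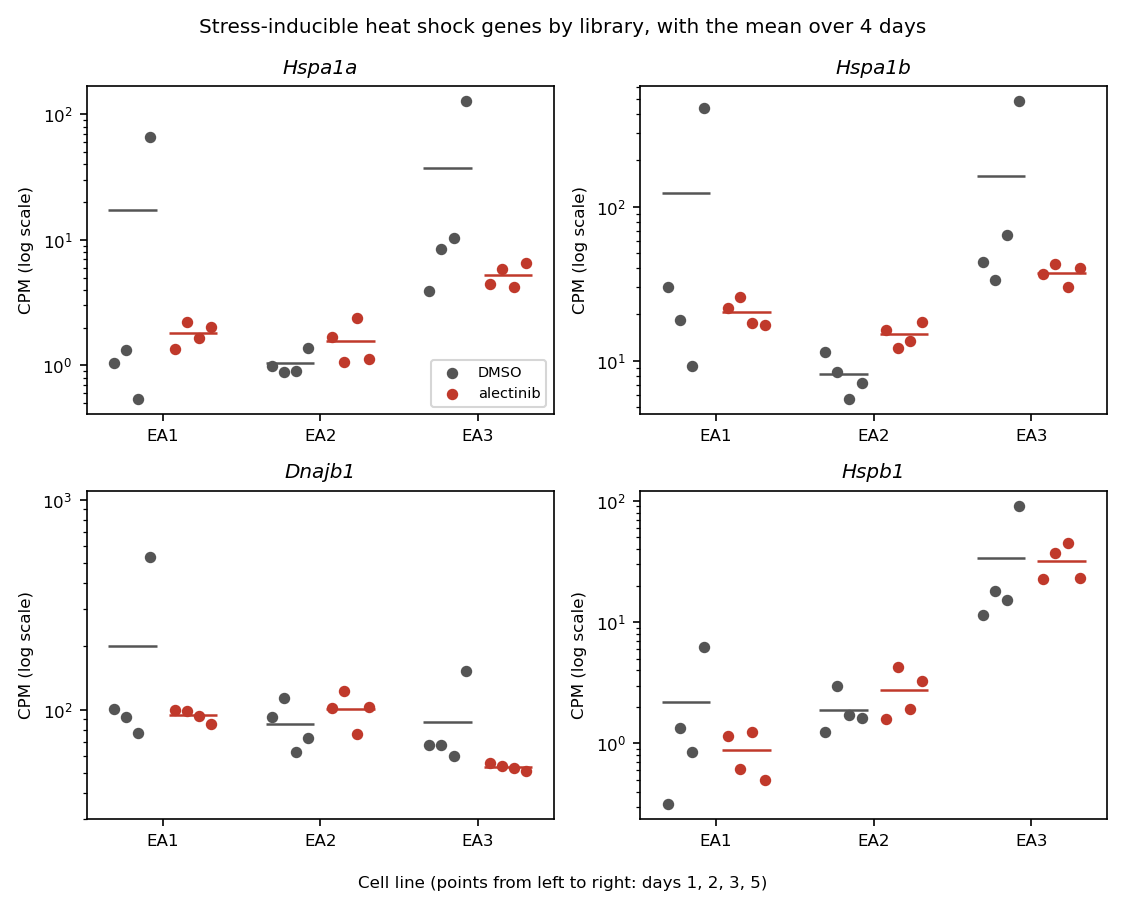
TMM-scaled CPM on a log axis of Hspa1a, Hspa1b, Dnajb1 and Hspb1 in each library, by line, with points for days 1, 2, 3 and 5 from left to right and a line at the mean. The DMSO points of day 5 stand above the other points in EA1 and EA3. In EA2 the day 5 point exceeds the other DMSO points for Hspa1a alone, at 1.38 CPM, below its alectinib points of days 1 and 3.

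A slope on log2 of the day in DMSO cultures was past the threshold for 3 of 34 members in EA1 (3.64% of all genes), 0 in EA2 (0%) and 5 in EA3 (11.3%). In EA1 these were Hspa1a (2.84 ± 0.56 (SE) log2 per doubling of days, adjusted p = 0.0178), Hspb1 (1.77 ± 0.45, 0.0425) and Dnajb1 (0.96 ± 0.25, 0.0454). In EA3, Dnajb9 rose by 0.93 ± 0.15 (adjusted p = 0.00313), Xbp1 by 0.65 ± 0.17 (0.0254), Hspa1a by 2.12 ± 0.50 (0.0147) and Hspb1 by 1.21 ± 0.31 (0.0220), and Hspd1 had a slope of -0.72 ± 0.14 (0.00638). Without day 5, the EA1 slopes of Hspa1a and Dnajb1 were -0.39 and -0.19, while the EA3 slopes of Dnajb9 (0.98), Hspd1 (-0.79) and Xbp1 (0.55) kept their direction, and none of the slopes in EA1 or EA3 passed. The slope of Hspb1 was then 0.93 in EA1 and 0.32 in EA3, and that of Hspa1a in EA3 was 0.91. No slope passed without day 1 either, and none in EA1 without day 2. In EA3 without day 2, Dnajb9 and Hspd1 passed. In EA2, 2 members had an unadjusted p below 0.05, and DESeq2 called 0. In alectinib cultures no member had a slope past the threshold in EA1 (0% of all genes), EA2 (0.0631%) or EA3 (0.491%). At an unadjusted p below 0.05 there were 1, 4 and 3 members, and DESeq2 called 0 in each line. The alectinib effect itself changed with days for 0 members in EA1 (0%), EA2 (0%) and EA3 (0.0631%), with 6, 3 and 4 at an unadjusted p below 0.05 and 0 by DESeq2.

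By day, the median ratio of the ER set was lowest on day 5 in EA3 (-0.62) and ran in EA2 from -0.39 on day 1 to 0.32 on day 5. The cytosolic set had its lowest medians on day 5, -0.78 in EA1 and -0.75 in EA3, the day on which DMSO levels of the inducible genes were highest, and stayed between 0.12 and 0.23 in EA2. In EA2, Hspb8 had 2 counts or fewer in each library, and Hspa1a and Hspb1 were at most at 2.37 and 4.24 CPM. The EA2 medians of this set thus rest in part on genes near the floor. The mitochondrial set lay between -1.33 and -0.61 on all days in EA1 and EA3, and reached -0.01 on day 5 in EA2. Over all genes tested, the day medians lay between 0.00 and 0.13.

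**Figure D4:**
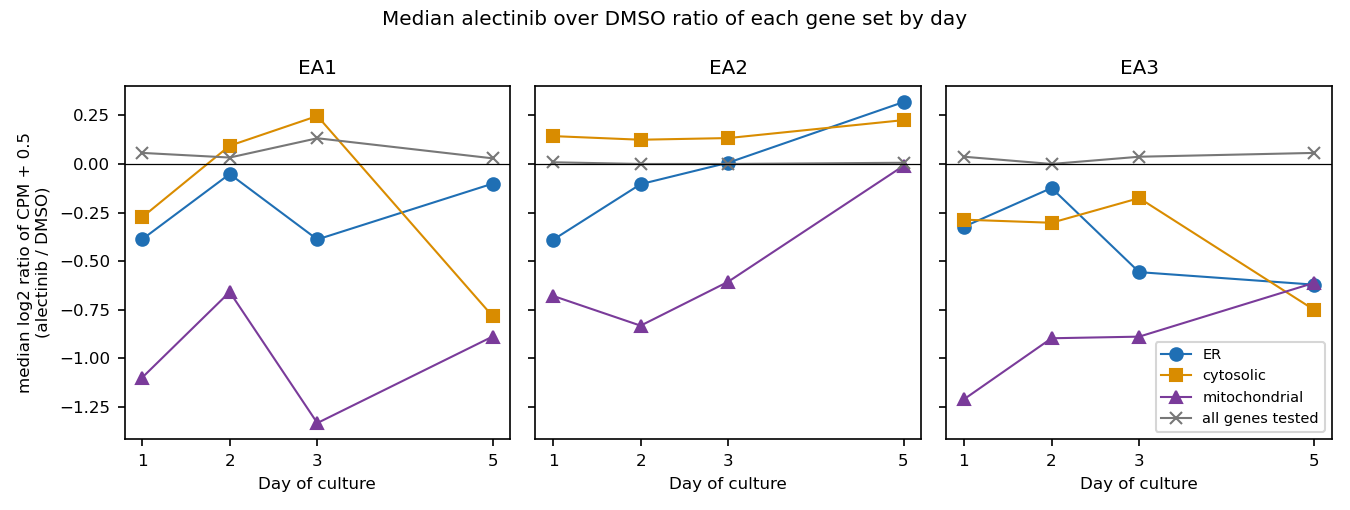
Median log2 ratio of CPM + 0.5 of alectinib to DMSO (y axis) of the ER, cytosolic and mitochondrial genes and of all genes tested, by day (x axis), for each line. The mitochondrial medians are the lowest on days 1 to 3 in all lines.

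**Figure D5:**
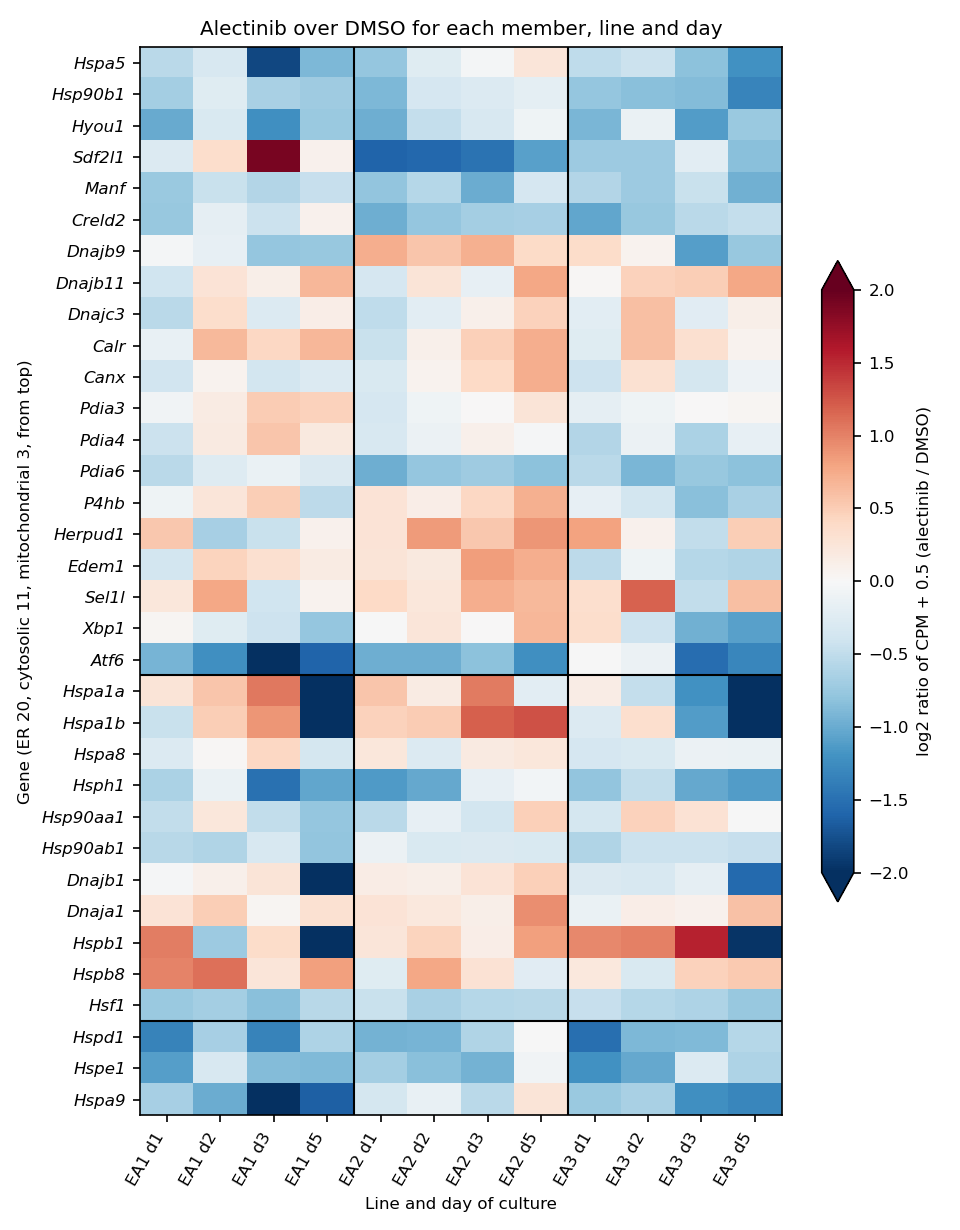
Log2 ratio of CPM + 0.5 of alectinib to DMSO for each of the 34 members (rows) by line and day (columns), with blue for lower and red for higher with alectinib and colors clipped at 2. Atf6, Hspd1, Hspe1 and Hsf1 are blue in most columns, and Hspa1a and Hspa1b turn dark blue on day 5 in EA1 and EA3.

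Base levels differed between lines. In the 12 DMSO libraries, 19 of 34 members differed between the 3 lines, against 55.6% of 12886 genes, so the share is near the background. Of the 34 members, 12 were called with the lowest mean in EA2, as were 20.3% of the 12886 genes, and the shares were not compared by a test. Among the 12 were Hspa5, P4hb, Herpud1, Edem1 and Xbp1. For Hspb8, which had at most 1 count per DMSO library in EA2 and EA3, that order cannot be read, and for Hspa1a and Hspb1 the EA1 mean rests on the day 5 library. The fit put Hspb1 at 0.33 ± 0.54 (log2, SE) in EA2 against EA1, with an adjusted p of 0.656. Hspb8, a small heat shock protein, was read in EA1 at 7.22 to 18.6 CPM in DMSO and at 1 count or fewer in each DMSO library of EA2 and EA3. It passed the filter on low counts through its EA1 libraries alone. Its call between lines was thus fixed in part by that filter, and its p-value is not given. Hspb1 lay between 11.5 and 90.8 CPM in EA3, between 0.31 and 6.20 CPM in EA1 and between 1.25 and 2.97 CPM in EA2 (adjusted p = 1.65e-05). Herpud1 had a mean of 165.5 ± 64.7 CPM for EA1, against 36.1 ± 22.4 CPM for EA2 and 112.1 ± 51.00 CPM for EA3 (SD, n = 4 each, adjusted p = 0.000113). Xbp1 had 160.7 ± 32.6 CPM, 54.7 ± 19.4 CPM and 99.6 ± 44.8 CPM in the same order (adjusted p = 0.000526). Per exon length, Hsp90ab1 had the highest DMSO level in each line, at 1322 to 1617 RPKM (counts scaled by exon length and library total). Hspa8 followed at 429.8 in EA2 and 592.1 in EA3, and in EA1 it stood at 461.9, just under P4hb at 466.5.

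Other genes of the same pathways were taken from lists written with results of these data known. Their counts are read against the shares of all genes given above, 19% higher and 14.6% lower for EA1, 13% and 11.3% for EA2, and 17.5% and 15.1% for EA3. Several counts are near those shares, and a list was not tested as a whole. Of 13 tested sensors and factors of the unfolded protein response, 2 rose and 5 fell in EA1. EA2 had 2 and 2 such genes, EA3 3 and 4. Ern1, which encodes the sensor Ire1, fell in EA1 (-2.34 ± 0.32 (SE), adjusted p = 0.000151), in EA2 (-1.23 ± 0.30, 0.00911) and in EA3 (-1.30 ± 0.30, 0.00557). Trib3, a target of the Perk branch, fell in EA1 (-3.38 ± 0.55, adjusted p = 0.000645) and EA3 (-2.61 ± 0.51, 0.00211), and Ddit3 (CHOP) in EA1 (-2.18 ± 0.58, 0.0116) and EA3 (-1.72 ± 0.57, 0.0340). Eif2ak3, which encodes Perk itself and was chosen after its values were seen, rose in EA3 (1.26 ± 0.19, adjusted p = 0.000313) and did not pass for EA1 (0.29, 0.239) or EA2 (0.43, 0.122). Creb3l1 rose in EA2 (4.02 ± 0.44, adjusted p = 3.59e-05), in EA1 (2.91) and in EA3 (1.07). Its DMSO mean in EA2 was 0.294 ± 0.148 CPM (SD, n = 4), a few counts per library, so the size of the EA2 change rests on few counts. Creb3 rose in EA3 (1.60 ± 0.27, adjusted p = 0.000743) and EA2 (1.60), and Wfs1 in EA1 (1.60 ± 0.22, 0.000183).

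Of 26 other ER folding genes, 6 rose and 7 fell in EA1. EA2 had 1 and 1 such genes, EA3 2 and 4. Ero1l, the oxidase that recharges disulfide isomerases, fell in EA3 (-3.40 ± 0.79, adjusted p = 0.00602) and EA1 (-2.15, 0.0416), and its EA3 DMSO levels were 1142 ± 1291 CPM (SD, n = 4). Of the peptidyl-prolyl isomerases, Fkbp11 fell in EA3 (-1.59) and Fkbp2 in all 3 lines (-0.74, -0.48 and -0.72 in order). Fkbp14 rose in EA1 (1.77) and EA3 (1.27), Fkbp7 in EA1 (1.42), and Qsox1, a sulfhydryl oxidase, in EA2 (1.41) and EA1 (1.24). Of 17 other genes of ER-associated degradation, 1 rose in EA1, while EA2 and EA3 had 3 each and 0 fell by edgeR. Os9 in EA2 (0.79), Edem3 in EA3 (0.73) and Herpud2 in EA2 (0.60) had the largest rises, and Os9 rose in EA1 (0.61) and EA3 (0.63) as well. In the translocon list, 11 of 18 fell and 2 rose in EA1. EA2 had 2 lower and 3 higher and EA3 5 and 1, with Sec11c in EA2 (-0.95), Ssr1 (-0.76) and Ssr4 (-0.75) in EA1 at the lower end and Spcs3 (0.86), Sec62 (0.72) and Sec63 (0.49) in EA2 at the upper end. Spcs3 fell in EA1 (-0.65, adjusted p = 0.00953). Sec62 rose in all 3 lines, and Ssr1 and Ssr4 fell in EA3 too.

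Other cytosolic heat shock genes moved both ways, with 7 of 32 higher and 8 lower for EA1. EA2 had 7 higher and 4 lower, and EA3 had 4 and 7. The small heat shock proteins Cryab (3.94 ± 0.69, adjusted p = 0.00115) and Hspb6 (1.45 ± 0.23, 0.000479) rose in EA2, and both rose in EA1 (3.57 and 1.202) and EA3 (2.63 and 0.64). Dnajb2 rose in all 3 lines (1.14, 1.11 and 0.89 in order). Hspa4l fell in EA1 (-1.03) and EA3 (-0.91), and Fkbp5 in all 3 lines (-0.53, -0.76 and -0.96 in order). Dnajb5 fell in EA2 (-1.01) and rose in EA1 (0.65, adjusted p = 0.0287). The cytosolic chaperonin TRiC and prefoldin had 11 of 14 members lower for EA1, 5 for EA2 and 10 for EA3, with 0 higher by edgeR, with medians of -0.50, -0.22 and -0.57. Pfdn1 (-0.95) and Pfdn4 (-0.88) in EA2 and Cct4 in EA3 (-0.76) had the largest falls. Pfdn1 and Pfdn4 fell in the other lines too, and Cct4 in EA1 (-0.74). Of 14 other mitochondrial folding and protease genes, 7 fell and 1 rose in EA1. EA2 had 1 lower and 0 higher, EA3 8 and 1. Lonp1 (-1.50 and -1.23), Afg3l2 (-0.89 and -1.33) and Dnaja3 (-0.95 and -0.56) fell in EA1 and EA3, and Hscb in EA1 (0.87) and Yme1l1 in EA3 (0.35) rose.

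Without the day 2 and day 3 pairs of EA3, whose DMSO libraries had the length trend, 6 of 34 members were called in EA3 in place of 14: Hsp90b1, Manf, Pdia6, Hspd1, Hspe1 and Hsf1. Hspa9 then had a log2 fold change of -1.03 (adjusted p = 0.0788) and Hspa5 of -0.86 (0.132). Only 2 days remain in EA3 in that fit.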

How the data were processed

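RNA was sequenced in 26 libraries with a stranded kit as reads of 151 bases. The authors trimmed reads with bbduk, aligned them to mm10 with STAR and counted reads per gene with its internal counter, and the deposited values are raw counts per gene. Which strand column was kept is not given in the sources used here. Of 55415 rows, 24 whose symbols had turned into dates were left out (0.129% to 0.201% of a library), and 55391 were kept. The members and lists were chosen with earlier results of these data known. Counts were fitted with edgeR 4.0.16 (R 4.3.3, limma 3.58.1) after filtering with filterByExpr and TMM scaling, with a term for each line and day and an alectinib term per line. Slopes used log2 of the day, and lines were compared within DMSO with day as a block. P-values were adjusted over all genes (Benjamini-Hochberg, 0.05). Values per library were given for called members, at most 4 per role with the largest changes, and for Hspa5, Hspa1a, Hspa1b, Hspa8, Hspd1 and Hsf1. Those of Hspb8 in EA1 were added after its values were seen. From the other lists, the 3 largest rises and 3 largest falls among called genes were named. On simulated data, 163, 162 and 167 of 195 genes changed 4-fold were recovered in EA1, EA2 and EA3. The simulated libraries held no differences between lines or days. Members called with alectinib changed less than 4-fold, so the recovery of changes of their size was not tested. DESeq2 1.42.0 was an alternative.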

Additional observations from a re-analysis of the deposited data

Results flagged for a closer look

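Of 200 groups of 4 libraries, 16 held a library far from the other 3, of which 11 were DMSO groups and 5 alectinib groups. Chance alone flags about 1 in 20 groups. In the DMSO culture of day 5, the highest values were those of Hspa1a (65.9 CPM in EA1, 128.0 in EA3), Hspa1b (435.7 and 487.0), Dnajb1 (535.5 and 152.4), and in EA3 also Hspb1 (90.8) and Hspa5 (2160.0). Atf6 stood out at 597.5 CPM in the EA1 DMSO library of day 3 and at 131.4 CPM in the EA2 alectinib library of day 3. Hsp90aa1 was high in the EA3 DMSO library of day 1 (1050.0 CPM), and Manf (93.1 CPM) and Hspe1 (85.5 CPM) were high in the EA1 alectinib library of day 2. Low values were those of Hspa5 in EA2 with alectinib on day 1 (414.8 CPM), Pdia3 in EA3 DMSO on day 3 (587.3 CPM) and Pdia4 in EA1 with alectinib on day 1 (166.5 CPM).

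Sdf2l1 (edgeR, adjusted p = 0.0234) and Edem1 (adjusted p = 0.0481) had log2 fold changes with alectinib that were unequal among lines. In the alectinib library labelled EA3 day 7, which entered no comparison, Dnajb11 (174.4 CPM), Calr (1282.0 CPM) and Dnaja1 (349.7 CPM) lay above every EA3 DMSO library. Across genes this library correlated more with EA2 alectinib libraries (0.960) than with those of EA3 (0.876), and the highest EA2 alectinib values of these genes were 165.8, 1141 and 365.1 CPM, so line and treatment cannot be told apart here.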

How the results depend on the processing

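None of the per-line alectinib calls of the 34 members changed sign under the 15 alternatives. Calls in the other lists were not followed under them. Without day 5, the EA1 DMSO slopes of Hspa1a (2.84) and Dnajb1 (0.96) turned to -0.39 and -0.19, and over the days left out they ranged from -0.39 to 4.69 and from -0.19 to 1.97. Of the 34 members, a minimum log2 fold change of 1 left 2 called in EA1, 2 in EA2 and 0 in EA3. Without the replicate block, 6 were called in EA2 in place of 10, and the block changed no other count by over 1.5 times. Deviations of same-day libraries correlated between -0.317 and 0.586. Without the 2 library pairs with the strongest length trend, 6 were called in EA3 and 0 differed between lines. That count, 2 as reported, was 1 with DESeq2 size factors, 1 with library size alone, 9 with no filter, 6 with DESeq2 and 1 with all 26 libraries, and 0 to 1 when a day was left out. Leaving out a day gave 6 to 7 in EA2, 12 to 21 for lines in DMSO, and DMSO slopes for 0 to 4 in EA1 and 0 to 8 in EA3. With no filter, slopes were called for 8 members in EA3 DMSO and for 1 each in EA2 and EA3 alectinib cultures, and changes of the effect over days for 4 in EA1 and 2 in EA3. With at least 10 counts in every library, 3 had an EA3 DMSO slope. The cause of these shifts was not tested. Scaling by library size alone moved the median of all genes by 0.12 in EA3. With 1 library per line, treatment and day, the days are the only replicates.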

Other observations

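The 2 libraries labelled EA3 day 7 correlated most with EA2 libraries. The median correlation of the DMSO library across genes was 0.862 with EA1, 0.915 with EA2 and 0.849 with EA3, and that of the alectinib library was 0.864, 0.960 and 0.876. Genes are not independent replicates, and these values are a description.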
